A study of Mus musculus with 19 samples.

Results

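The comparison described here is that of brown adipose tissue (BAT) from young mice kept in the cold with BAT from young mice kept at room temperature, read across all genes with the genes of glucose metabolism left aside. BAT RNA was sequenced from male, wild type C57BL6J mice aged 3 months, 5 of them at 4°C and 5 at 24°C, and these 10 samples were compared within a series of 19, whose other 9 samples came from old mice (24 months, 4 cold and 5 room temperature) and enter only a test of age against temperature. Mice of both temperatures were kept 1 to a cage, with water but neither bedding nor food, so food was withheld from both groups. The time at either temperature is given as 5 hr in the treatment protocol and as 24 hr in the design text, and the time of day of tissue collection is not given in the sources used here. The treatment protocol counts 10 young and 9 old mice, as many as there are samples, so each sample is taken as 1 mouse. The members of the comparison are all 16501 genes above 0 in at least 1 of the 10 samples, of 20554 genes listed, and within them 30 lists of signalling, transcription factor, lipid, transport, secreted-protein and stress genes, which held 1072 distinct genes, 1008 of them tested.

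Levels are in TPM, the share of a library's reads that a gene takes after division by its length, and the deposited values are log2(TPM + 1). Over the listed genes they summed to 162600 to 211321 TPM per cold sample and 153494 to 201039 TPM per room temperature sample, so the total differed between samples. A log2 fold change below is the mean of the 4°C samples minus the mean of the 24°C samples on that scale, where 1 is a doubling for well expressed genes and an understatement for genes near 0. SE is its standard error, and n = 5 in each group throughout. Genes were called at a Benjamini-Hochberg adjusted p under 0.05 from limma's moderated two-sided test over all 16501 genes. In TPM, levels are given as mean ± SD. Between 4335817 and 15842056 reads in listed genes were recovered per cold sample (median 5335105) and between 1860374 and 11609975 per room temperature sample (median 4156999). Room temperature replicate 2 was labelled as paired-end where the other samples were single-end, and the predicted gene Gm20594 stood at 2503.6 TPM in it against 33784 to 72030 TPM in the other samples of its group, so each result was also computed without that sample.

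BAT burns fuel to make heat. In the cold, sympathetic nerves release noradrenaline, which binds beta-adrenergic receptors on brown adipocytes; the receptors act through the stimulatory G protein and adenylyl cyclase to raise cyclic AMP, which activates protein kinase A (PKA). PKA phosphorylates CREB-family transcription factors, which bind cyclic AMP response elements (CRE) in the promoters of fast-response genes, and it phosphorylates the lipid droplet machinery, which releases fatty acids for the mitochondria. The tissue also takes up lipoprotein triglyceride through lipoprotein lipase and can rebuild its own stores by fatty acid and triglyceride synthesis.

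Promoter sequences are shown for 6 genes of the signalling and transcription factor results, because these are the genes on which those results turn and their windows hold the letters searched for. Each is taken from RefSeq (GRCm38.p6), 5′ to 3′ on the strand of the gene and lies upstream of a RefSeq transcript start. In the GENCODE M21 annotation of the same assembly none of the letters shown falls in an exon of the gene, while those of Nr4a1 and Dusp1 lie in an intron of a longer transcript. Capitals mark the half-site TGACG or its reverse complement in the first 4 sequences, the whole CRE TGACGTCA in Dusp1, and the D-box TTATGTAA, the element bound by PAR bZIP factors and by Nfil3, in Per3. The windows are Nr4a1 at chr15:101266596-101266845 (plus strand), Nr4a2 at chr2:57124070-57124243 (minus strand), Nr4a3 at chr4:48045055-48045152 (plus strand), Ppargc1a at chr5:51567730-51567814 (minus strand), Dusp1 at chr17:26508568-26508655 (minus strand) and Per3 at chr4:151044776-151044910 (minus strand).

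Nr4a1: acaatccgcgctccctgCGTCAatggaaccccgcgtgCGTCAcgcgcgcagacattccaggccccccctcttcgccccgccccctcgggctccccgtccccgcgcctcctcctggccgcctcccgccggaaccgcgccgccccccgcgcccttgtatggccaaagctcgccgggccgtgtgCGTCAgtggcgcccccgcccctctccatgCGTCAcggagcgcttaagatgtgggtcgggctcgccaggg
Nr4a2: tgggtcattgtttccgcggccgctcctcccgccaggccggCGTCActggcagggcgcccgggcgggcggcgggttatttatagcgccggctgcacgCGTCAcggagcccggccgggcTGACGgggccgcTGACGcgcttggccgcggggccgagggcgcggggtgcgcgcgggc
Nr4a3: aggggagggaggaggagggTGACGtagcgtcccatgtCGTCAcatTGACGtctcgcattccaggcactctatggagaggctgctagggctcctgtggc
Ppargc1a: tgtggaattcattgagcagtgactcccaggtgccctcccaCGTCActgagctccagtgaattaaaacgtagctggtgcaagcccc
Dusp1: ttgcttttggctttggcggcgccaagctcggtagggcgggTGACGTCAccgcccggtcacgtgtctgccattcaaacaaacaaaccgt
Per3: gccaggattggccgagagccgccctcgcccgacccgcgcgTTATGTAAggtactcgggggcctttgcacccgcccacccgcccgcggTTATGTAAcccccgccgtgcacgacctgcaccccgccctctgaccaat

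The 3 Nr4a windows held 4 half-sites each, of which 3 are in the letters shown for Nr4a3, the Ppargc1a window 1, and the Per3 window 2 D-boxes. Of 16501 genes tested, 12956 matched a RefSeq window of 300 bases (250 before the start and 50 after), and some genes had more than 1 window, giving 16359. On both strands, the whole CRE lay in 2.60% of all windows, in 4.45% of those of genes called higher and in 1.70% of those of genes called lower, and each whole CRE contains the half-site. The half-site lay in 27.1% of all windows, 39.1% of those of genes called higher and 24.6% of those of genes called lower. Windows of genes called higher also held more CG dinucleotides (median 22 per window, against 18.5 for genes called lower and 17 for all), and the half-site itself contains a CG; the part of base composition in these shares was not tested. Among immediate early genes the half-site was in 20 of 29 windows. It was in 9 of the 13 immediate early genes called higher that had a window and in 5 of the 7 others, so its presence did not set apart the members that rose. The D-box lay in 0.727% of all windows, 0.556% of those of genes called higher and 0.707% of those of genes called lower. In the clock list only Per3 had it, 1 of the 18 genes with a window. A match is a description of the letters in a window and not a bound site.

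Of the 16501 genes tested, 1585 were higher and 2694 lower at 4°C, which is 25.9% called, 9.61% higher and 16.3% lower, and 1194 and 1848 of them did not overlap between the groups. Since these are whole tissue samples, fewer cells of a type and less RNA per cell cannot be told apart in any of them. The split between higher and lower depended on the scaling: centring each sample on its median moved the median fold change of all genes by 0.14 and gave 3468 higher and 1856 lower, so 65.1% of calls were higher against 37.0%. Precision weights on recovered reads, an alternative chosen after seeing the data, moved that median by -0.22 and gave 1904 higher and 3708 lower. None of the 193 genes named below changed direction under any alternative, and of the 186 that were called, 186 were called in the same direction after median centring. These genes were named first for large called changes in these same data, and some alternatives leave the fold change as it was. Directions of whole lists are therefore given only where the majority of calls held under every scaling tried, or with the scaling under which it did not.

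**Figure D1:**
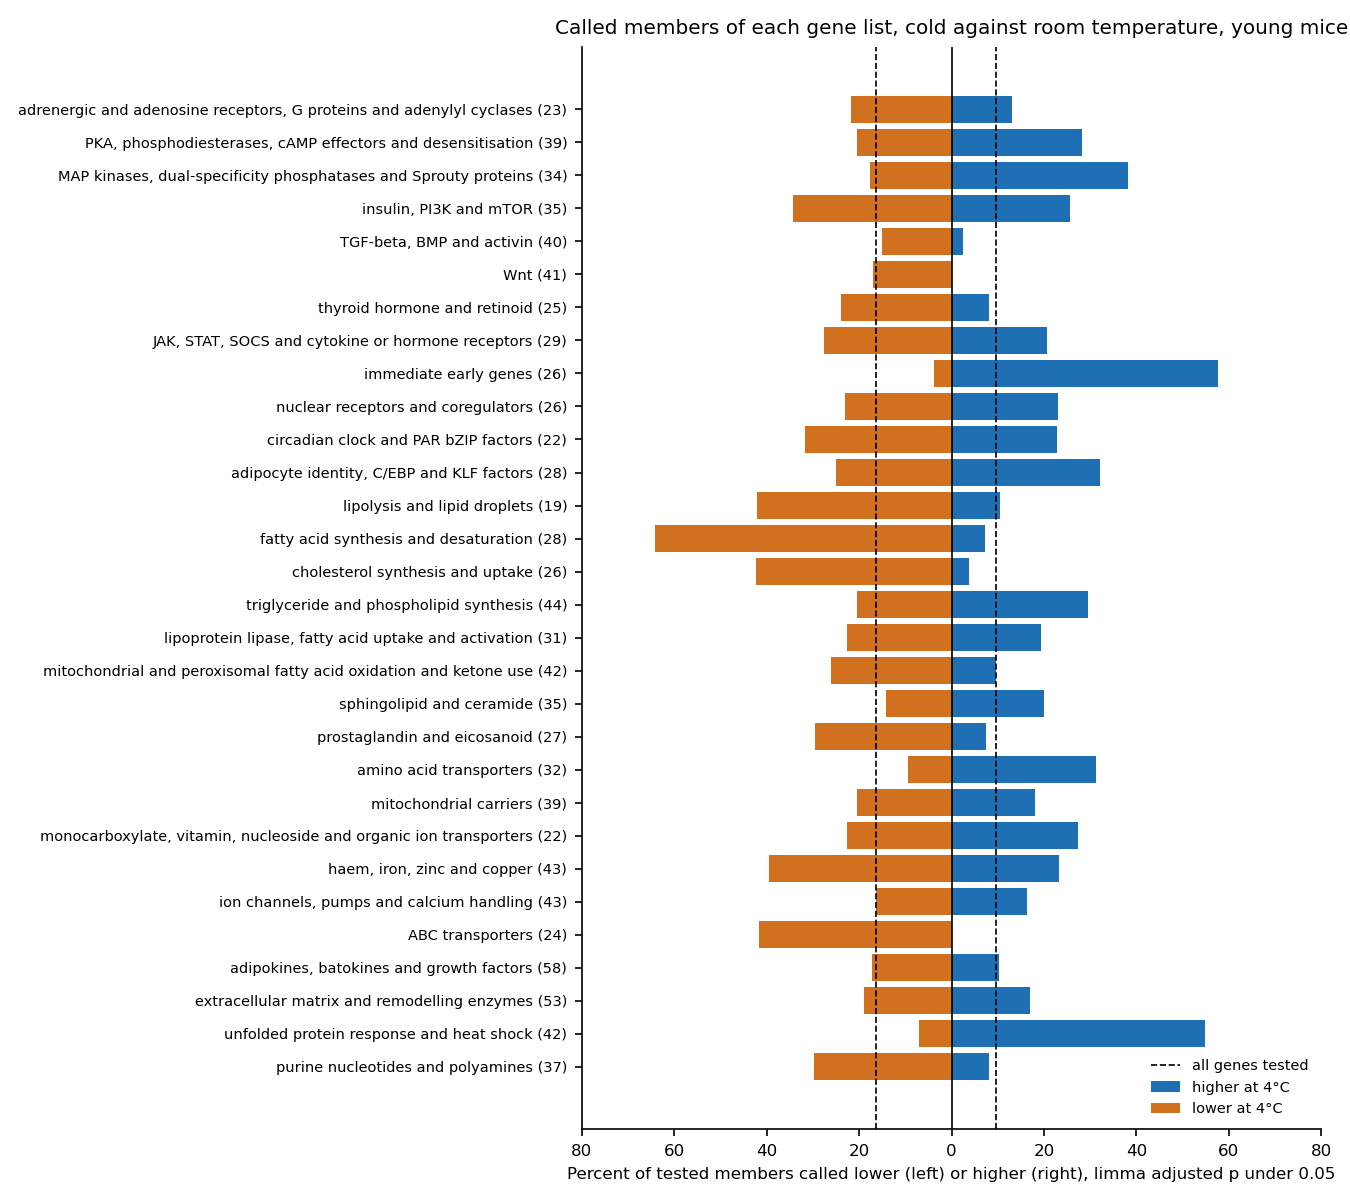
Share of each list's tested members (number in brackets) called higher (right, blue) or lower (left, orange) at 4°C, in percent, with dashed lines at the shares over all genes tested. Immediate early genes and chaperones reached furthest to the right and fatty acid synthesis furthest to the left, while no Wnt or ABC transporter gene was called higher (after median centring 6 Wnt and 3 ABC transporter genes were).

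At the receptor, the level of Adrb3, the main adrenergic receptor of mouse brown adipocytes, did not pass the test, while Adrb1 was lower. Adrb3 stood at 17.2, 22.4, 10.5, 8.69 and 21.1 TPM at 24°C and at 18.9, 23.0, 15.3, 20.97 and 15.2 TPM at 4°C, and the groups overlapped (log2 fold change 0.28, adjusted p = 0.514). Adrb1 fell, with 5.15, 3.47, 3.91, 3.40 and 3.36 TPM at 24°C and 1.30, 1.63, 2.01, 1.02 and 1.497 TPM at 4°C (log2 fold change -0.96, SE 0.13, adjusted p = 0.000595). The highest cold sample of Adrb1 lay below its lowest room temperature sample. Adenylyl cyclase 3, encoded by Adcy3, which makes cyclic AMP, rose from 8.79, 7.97, 8.59, 5.80 and 18.8 TPM to 38.2, 36.5, 46.7, 45.5 and 43.9 TPM (log2 fold change 2.07, SE 0.25, adjusted p = 0.000367), and the lowest cold sample stood above the highest room temperature sample. Another cyclase, Adcy9, fell from 4.65 to 2.01 TPM. The adenosine receptor that lowers cyclic AMP, Adora1, fell from 6.62 to 1.93 TPM, and the one that raises it, Adora2a, rose from 0.625 to 1.69 TPM. The inhibitory G protein subunits Gnai1 (11.1 to 6.69 TPM) and Gnai2 (10.3 to 6.05 TPM) fell as well. In all, 3 of 23 tested members of this list were higher and 5 lower, and that majority turned to 9 higher and 5 lower after median centring. With the spread of all 19 samples in the fit, Adrb1, Gnai1 and Gnai2 were no longer called.

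Downstream of cyclic AMP, 11 of 39 members were higher and 8 lower, and genes that encode brakes on the pathway were among both. Sik1, a CREB-induced kinase that holds CREB coactivators out of the nucleus, stood at 2.61, 1.47, 2.92, 2.99 and 3.73 TPM at 24°C and 12.9, 15.4, 15.6, 16.7 and 14.5 TPM at 4°C (log2 fold change 2.12, SE 0.16, adjusted p = 3e-05). Pde7b, a phosphodiesterase that breaks down cyclic AMP, stood at 3.60, 3.22, 3.62, 2.93 and 5.42 TPM and 14.8, 13.2, 11.3, 13.3 and 11.1 TPM (log2 fold change 1.55, SE 0.13, adjusted p = 6.35e-05). All cold samples lay above all room temperature samples for both genes. Rgs2, which speeds the turning off of G proteins, rose from 12.5 ± 6.80 TPM to 39.5 ± 10.1 TPM, the PKA anchor Akap12 rose from 2.47 to 6.64 TPM, and Crem, whose short forms repress CRE promoters, rose from 1.88 to 4.64 TPM. The PKA subunits moved in opposite directions. The regulatory subunit Prkar1a rose from 16.3, 18.998, 18.7, 16.7 and 19.7 TPM to 33.7, 30.1, 32.6, 29.7 and 29.3 TPM (log2 fold change 0.75, SE 0.06, adjusted p = 5.1e-05), and the catalytic subunit Prkaca fell from 57.7, 67.7, 43.6, 52.1 and 60.05 TPM to 24.7, 37.7, 37.8, 31.6 and 35.8 TPM (log2 fold change -0.73, SE 0.14, adjusted p = 0.00525). Neither overlapped between the groups, whereas the regulatory subunit typical of adipocytes, Prkar2b, fell from 271 to 179.7 TPM with overlapping groups. Beta-arrestin, Arrb1, which uncouples receptors, fell from 2.04 to 1.10 TPM. The receptor-desensitising kinases Adrbk1 (log2 fold change -0.26), Adrbk2 (-0.39) and Grk6 (-0.62) and the phosphodiesterase Pde8b (-0.19) were lower as well. Prkaca and Prkar2b were not called with all 19 samples in the fit.

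**Figure D2:**
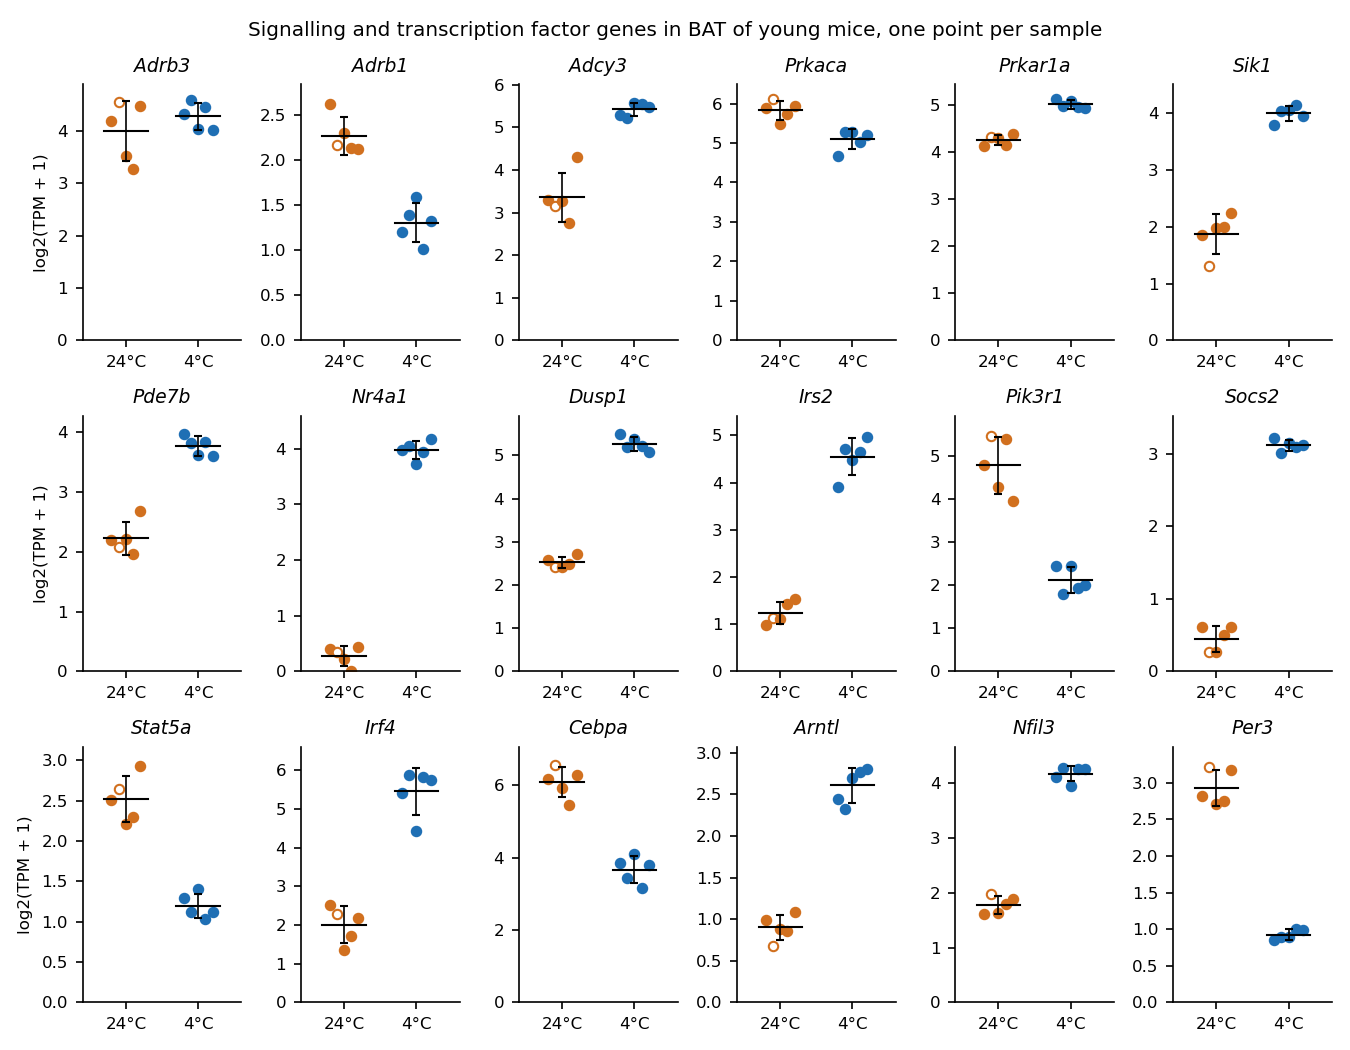
Levels of 18 signalling and transcription factor genes in log2(TPM + 1), 1 point per sample, with the mean and SD of the 5 samples of a group as black bars and the paired-end sample as an open circle. Adrb3 overlapped between the temperatures, whereas the other 17 genes separated, with Adrb1, Prkaca, Pik3r1, Stat5a, Cebpa and Per3 lower at 4°C.

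The kinase cascades below growth factor receptors showed higher transcripts of their phosphatases and feedback inhibitors. In this list 13 of 34 members rose and 6 fell. Dusp1, which dephosphorylates p38 and JNK kinases, stood at 4.95, 4.31, 4.37, 4.61 and 5.59 TPM at 24°C and 43.9, 35.5, 40.6, 36.5 and 32.7 TPM at 4°C (log2 fold change 2.75, SE 0.09, adjusted p = 4.46e-07). Dusp6, which acts on ERK, stood at 10.5, 8.17, 18.98, 6.91 and 24.96 TPM and 63.0, 53.8, 48.3, 52.0 and 51.3 TPM (log2 fold change 2.02, SE 0.31, adjusted p = 0.0015). Both separated the groups, with the room temperature samples of Dusp6 spread widely and those of Dusp1 close together. Errfi1, an inhibitor of EGF receptors, rose from 2.88 to 13.3 TPM, and Spry4, a Sprouty inhibitor of ERK signalling, from 1.85 to 4.78 TPM. The phosphatases did not all rise, since Dusp14 fell from 1.78 to 0.0604 TPM and Dusp7 from 3.36 to 0.951 TPM.

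Insulin signalling genes that changed included adaptors of the receptor. Irs2, an insulin receptor substrate and a known CREB and Foxo1 target, was at 0.966, 1.18, 1.16, 1.71 and 1.90 TPM at 24°C and at 14.1, 25.2, 21.4, 24.2 and 30.2 TPM at 4°C (log2 fold change 3.31, SE 0.19, adjusted p = 1.02e-05). Irs3, the substrate found in rodent adipocytes, went the other way, from 4.16, 6.42, 4.64, 5.55 and 6.14 TPM to 0.781, 0.711, 0.715, 0.297 and 0.438 TPM (log2 fold change -2.003, SE 0.13, adjusted p = 1.35e-05). Pik3r1, the regulatory subunit of PI3 kinase, fell from 26.8, 43.5, 18.6, 41.0 and 14.5 TPM to 4.47, 2.49, 4.47, 2.84 and 3.04 TPM (log2 fold change -2.65, SE 0.30, adjusted p = 0.000302). None of the 3 overlapped between the groups. Akt2, the insulin-responsive Akt of adipocytes, fell from 16.4 to 7.52 TPM, and Grb14, an inhibitor of the insulin receptor, from 3.29 to 0.975 TPM. Foxo1, the transcription factor that insulin holds inactive, rose from 6.36 to 14.6 TPM, Trib1, a pseudokinase, from 4.35 to 15.3 TPM, and Ddit4, an inhibitor of mTOR complex 1, from 1.68 to 11.2 TPM. Of the whole list 9 of 35 were higher and 12 lower, which became 15 higher and 10 lower after median centring.

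The TGF-beta and Wnt lists held few rises, with 1 of 40 higher and 6 lower and 0 of 41 higher and 7 lower. These counts turned to 10 higher and 3 lower and to 6 higher and 4 lower after median centring. Only 20 of the TGF-beta and 13 of the Wnt members tested had a mean of 1 TPM or more. The shares called lower, 15% and 17.1%, were near the 16.3% over all genes tested. Single genes moved by more. Id2, a BMP-induced inhibitor of helix-loop-helix factors, fell from 18.1, 13.5, 11.1, 13.7 and 18.3 TPM at 24°C to 3.76, 3.93, 3.69, 3.19 and 4.57 TPM at 4°C (log2 fold change -1.71, SE 0.14, adjusted p = 4.04e-05). The receptor Tgfbr2 fell from 23.6 to 7.69 TPM, and Fst, which binds activins and myostatin, rose from 0.810 to 4.05 TPM. Among Wnt genes the ligand Wnt5a (1.49 to 0.286 TPM), the receptor Fzd4 (22.4 to 12.1 TPM) and the kinase Gsk3b (7.69 to 3.85 TPM) fell.

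In the list of thyroid hormone and retinoid genes 2 of 25 members were higher and 6 lower. Dio2, the deiodinase that makes active thyroid hormone inside the cell, rose from 20.8 ± 11.4 TPM to 384 ± 36.3 TPM, and the retinol-binding protein Rbp7 rose from 4.51, 8.48, 7.83, 4.05 and 6.62 TPM to 43.6, 58.6, 50.8, 56.1 and 47.5 TPM (log2 fold change 2.88, SE 0.18, adjusted p = 1.43e-05). The retinol-oxidising dehydrogenase Adh1 fell from 27.4 to 13.3 TPM. In the JAK and STAT list 6 of 29 members were higher and 8 lower, with an equal 7 and 7 after median centring. Socs2, which restrains growth hormone receptor signalling, stood at 0.530, 0.199, 0.201, 0.416 and 0.531 TPM at 24°C and 8.26, 7.04, 7.86, 7.57 and 7.72 TPM at 4°C (log2 fold change 2.67, SE 0.08, adjusted p = 4.25e-07). The cold samples of Socs2 lay within a narrow band far above every room temperature sample. The growth hormone-activated factors Stat5a (4.81 to 1.30 TPM) and Stat5b (5.96 to 3.27 TPM) fell, and the LIF receptor Lifr rose from 6.09 to 14.9 TPM. In the old mice Socs2 stood at 0.389, 0.457, 1.79, 0.496 and 1.51 TPM at room temperature and 1.98, 1.98, 2.60 and 1.99 TPM in the cold. The cold difference was 2.67 in the young and 0.76 in the old mice, an interaction of age and temperature of 1.90 (SE 0.25, limma adjusted p = 0.00998). It was 1 of 2 interactions called among 16957 genes (0.0118%), where 838 had an unadjusted p under 0.05. Of the old samples, cold replicates 1 and 2 and room temperature replicate 1 were as low in Gm20594 as the paired-end young sample, at 2391 to 2453 TPM against 35798 to 40829 TPM in the other old samples, although the labels give them as single-end. Without these 4 samples, an alternative chosen after seeing the data, the interaction of Socs2 was 1.89 (adjusted p = 0.0262) and 266 genes were called, 252 with a higher and 14 with a lower cold difference in the young. That fit keeps only replicates 3 and 4 of the old cold group, and replicate 4 had the fewest recovered reads of any cold sample (1348426).

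Immediate early genes, which are switched on within minutes to hours of a signal without new protein synthesis, formed the list with the largest share of rises: 15 of 26 tested members were higher and 1 lower, with a median log2 fold change of 0.67 against -0.02 for all genes tested. It holds the orphan receptors whose promoters are printed above. Nr4a1 was at 0.314, 0.273, 0.166, 0 and 0.355 TPM at 24°C and at 14.7, 15.6, 12.2, 14.3 and 17.0 TPM at 4°C (log2 fold change 3.69, SE 0.10, adjusted p = 3.64e-07). Nr4a3 was at 0.0216, 0.0678, 0.206, 0.0884 and 0.0862 TPM and 4.74, 13.9, 7.28, 5.96 and 13.5 TPM (log2 fold change 3.10, SE 0.26, adjusted p = 6.08e-05), and Nr4a2 rose from 1.23 to 6.15 TPM. All Nr4a1 and Nr4a3 samples at room temperature were under 1 TPM and all cold samples were well above it. The stress-responsive CREB-family factor Atf3 was at 0.784, 0.613, 0.760, 0 and 0.781 TPM at 24°C and 22.4, 20.7, 14.1, 20.1 and 15.4 TPM at 4°C (log2 fold change 3.63, SE 0.19, adjusted p = 5.76e-06). Of the AP-1 family, Jun rose from 1.96 to 9.60 TPM, Fosl2 from 1.91 to 6.09 TPM and Maff, a small Maf protein, from 1.27 to 9.11 TPM. Fos itself was at 0.165, 0.0575, 0.117, 0.112 and 0.198 TPM and 0.179, 0.265, 0.913, 0.689 and 0.940 TPM, with overlapping groups, and its adjusted p of 0.0395 was over 0.05 in 8 of the 10 fits that left out 1 sample and with all 19 samples. Ier3 alone fell, from 4.42 to 1.89 TPM. Egr1 was not analysed here.

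Among nuclear receptors and coregulators, Ppargc1a, the coactivator of mitochondrial biogenesis and of Ucp1, rose from 5.81, 6.15, 7.06, 4.70 and 8.57 TPM at 24°C to 108, 178, 157, 191 and 132 TPM at 4°C (log2 fold change 4.36, SE 0.18, adjusted p = 1.81e-06). Pparg, the adipocyte's master receptor, did not pass the test, with 104 ± 18.96 TPM at 24°C and 114 ± 13.6 TPM at 4°C (adjusted p = 0.488). The mineralocorticoid receptor Nr3c2 fell from 2.84, 3.74, 2.33, 2.57 and 3.51 TPM to 0.477, 0.513, 0.749, 0.554 and 0.520 TPM (log2 fold change -1.35, SE 0.10, adjusted p = 3.02e-05), and the oestrogen receptor Esr1 fell from 3.06 to 0.731 TPM. In this list 6 of 26 were higher and 6 lower, which became 11 and 5 after median centring. Ucp1, the uncoupling protein, rose from 1935 to 4731 TPM (log2 fold change 1.33), and its log2 fold change was 0.55 with quantile normalization (adjusted p = 0.042).

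Factors that set adipocyte identity diverged. Irf4, a fasting- and cold-induced partner of Ppargc1a, was at 4.75, 3.84, 1.54, 2.30 and 3.56 TPM at 24°C and 41.9, 57.7, 20.4, 55.5 and 53.1 TPM at 4°C (log2 fold change 3.45, SE 0.32, adjusted p = 9.69e-05). Cebpa, a driver of adipocyte differentiation and lipogenesis, was at 70.9, 93.6, 59.7, 42.9 and 76.4 TPM and 13.4, 9.86, 16.0, 7.96 and 13.0 TPM (log2 fold change -2.41, SE 0.23, adjusted p = 0.000117). The groups did not overlap for either gene, and cold replicate 3 was the lowest cold sample for Irf4. The related Cebpb, which cyclic AMP induces, rose from 21.7 to 37.6 TPM, a difference not called with all 19 samples in the fit. The glucocorticoid-responsive factors Klf15 (12.0 to 26.6 TPM) and Klf9 (21.9 to 45.3 TPM) rose, as did Zfp516 (1.23 to 2.38 TPM), a cold-inducible activator of the Ucp1 promoter. Ebf2, a brown preadipocyte factor, fell from 9.84 to 4.33 TPM. In this list 9 of 28 were higher and 7 lower, equal at 9 and 9 with median centring on genes of 1 TPM or more.

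Clock genes moved in both directions. Arntl, the activating partner of Clock, was at 0.982, 0.605, 0.850, 0.820 and 1.12 TPM at 24°C and at 4.45, 4.01, 5.48, 5.82 and 6.02 TPM at 4°C (log2 fold change 1.71, SE 0.11, adjusted p = 1.44e-05). Nfil3, the repressor that competes for D-boxes, was at 2.05, 2.94, 2.099, 2.48 and 2.70 TPM and 16.4, 18.4, 14.5, 18.2 and 18.2 TPM (log2 fold change 2.40, SE 0.09, adjusted p = 1.1e-06). The activators of D-boxes fell, Dbp from 4.86 to 1.08 TPM and Hlf from 4.27 to 1.13 TPM. Per3, whose promoter holds 2 D-boxes, fell from 6.07, 8.25, 5.51, 5.70 and 8.04 TPM to 0.803, 0.854, 0.861, 1.01 and 0.986 TPM (log2 fold change -2.004, SE 0.11, adjusted p = 6.43e-06). Any part of these D-boxes in the fall of Per3 was not tested. Arntl, Nfil3 and Per3 separated the groups without overlap. Per1 (2.79 to 7.78 TPM), which CREB induces, Per2 (4.60 to 7.39 TPM) and Clock (8.36 to 14.3 TPM) rose, and the repressors Bhlhe40 (16.2 to 4.02 TPM) and Nr1d1 (4.43 to 2.004 TPM) fell. The list held 5 of 22 higher and 7 lower, which became 11 and 5 after median centring. Clock, Per2 and Nr1d1 were not called with all 19 samples in the fit. Since the time of day of collection is not known here, temperature and time of day cannot be told apart for these genes.

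Fatty acid synthesis was the list with the largest share of falls: 18 of 28 tested members were lower and 2 higher, with a median log2 fold change of -0.59. Its regulators were among them. Srebf1, the transcription factor that insulin induces to drive lipogenesis, was at 26.0, 35.2, 17.7, 30.1 and 26.6 TPM at 24°C and 2.84, 2.12, 2.96, 1.95 and 2.26 TPM at 4°C (log2 fold change -3.01, SE 0.17, adjusted p = 8.53e-06). Mid1ip1, which promotes polymerisation of acetyl-CoA carboxylase, was at 15.6, 14.6, 11.5, 12.1 and 15.0 TPM and 1.32, 0.927, 1.61, 1.52 and 1.22 TPM (log2 fold change -2.67, SE 0.11, adjusted p = 1.58e-06). Each room temperature sample was above each cold sample for both. Mlxipl, encoding the carbohydrate-responsive factor ChREBP, fell from 18.05 to 7.35 TPM, and Thrsp, a lipogenic protein that responds to thyroid hormone, from 1369 to 147 TPM.

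Enzymes of the pathway fell as well. The citrate carrier Slc25a1 (189 to 89.1 TPM), the citrate-cleaving Acly (697 to 192 TPM), the carboxylase Acaca (165 to 104 TPM), the synthase Fasn (1306 to 751 TPM) and the NADPH-making Me1 (132 to 76.4 TPM) were each lower. Fasn, as the end point of the pathway, was at 1168, 1722, 962, 1399 and 1279 TPM at 24°C and 638, 836, 781, 714 and 783 TPM at 4°C (log2 fold change -0.78, SE 0.14, adjusted p = 0.0039). Slc25a1, Acaca, Fasn and Me1 separated the groups, but none of these 4 was called with all 19 samples in the fit. The desaturase Scd1 stood at 4602 ± 647 TPM at 24°C and 4206 ± 807 TPM at 4°C, with overlapping groups (adjusted p = 0.569). The members called higher were Ptplb (19.04 to 49.2 TPM), a dehydratase of very long chain elongation, and the elongase Elovl7 at 0.0217 ± 0.0191 TPM at 24°C and 0.106 ± 0.0207 TPM at 4°C, the latter not called with median centring on genes of 1 TPM or more.

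Cholesterol genes also leaned down, with 11 of 26 lower and 1 higher. Sc5d, a late desaturase of the pathway, was at 34.1, 37.8, 28.0, 32.2 and 36.6 TPM at 24°C and 13.5, 11.9, 12.8, 13.8 and 9.95 TPM at 4°C (log2 fold change -1.38, SE 0.10, adjusted p = 3.02e-05), without overlap. The decarboxylase Mvd (2.60 to 0.545 TPM) and the sterol sensor partner Insig1 (106 to 52.8 TPM) fell. Insig1 was not called with all 19 samples in the fit.

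Glycerolipid synthesis was not lower as a whole: 13 of 44 members rose and 9 fell, and at the last step one isoform rose while another fell. Gyk, glycerol kinase, which lets BAT reuse glycerol, was at 30.99, 23.3, 28.9, 17.1 and 46.8 TPM at 24°C and 144, 151, 176, 174 and 152 TPM at 4°C (log2 fold change 2.47, SE 0.22, adjusted p = 8.35e-05). Gpam, the mitochondrial acyltransferase of the first step, rose from 106 to 249 TPM. Of other acyltransferases, Agpat6 rose from 57.4 to 106 TPM and Agpat2 fell from 480.4 to 231 TPM. At the last step Dgat2 was at 424, 535, 351, 377 and 488 TPM and 72.4, 71.2, 89.6, 78.1 and 139.9 TPM (log2 fold change -2.29, SE 0.20, adjusted p = 6.47e-05), whereas Dgat1 was at 43.8, 53.5, 40.6, 34.2 and 52.2 TPM and 93.6, 71.0, 74.1, 66.5 and 84.5 TPM (log2 fold change 0.79, SE 0.14, adjusted p = 0.00275). Both separated the groups, in opposite directions. Choline kinase Chka, of phosphatidylcholine synthesis, rose from 0.468 to 2.49 TPM.

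On the lipolytic side, 2 of 19 members were higher and 8 lower. Pnpla2, the adipose triglyceride lipase that takes the first fatty acid, did not pass the test at 186 ± 48.3 TPM at 24°C and 152 ± 41.3 TPM at 4°C (adjusted p = 0.433). Its coactivator Abhd5 rose from 21.9 to 36.9 TPM, though not with all 19 samples in the fit. Lipe, the hormone-sensitive lipase of the next step, was at 90.7, 136, 75.3, 88.7 and 106 TPM at 24°C and 31.4, 39.2, 51.0, 32.8 and 39.3 TPM at 4°C (log2 fold change -1.33, SE 0.18, adjusted p = 0.000624), with every cold sample below every room temperature sample. Pnpla3, which Srebf1 is known to induce, fell from 47.2 to 11.4 TPM. Among droplet proteins Plin4 rose from 39.3 to 81.4 TPM and Cidec, which fuses droplets, fell from 263 to 161 TPM, the latter not called with all 19 samples.

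Genes of lipoprotein uptake at the vessel wall rose together in part, within a list of 6 of 31 higher and 7 lower whose balance changed with the scaling. Lpl, the lipase of circulating triglyceride, was at 231, 231, 215, 183 and 261 TPM at 24°C and 436, 554, 564, 580.2 and 544 TPM at 4°C (log2 fold change 1.26, SE 0.11, adjusted p = 5.56e-05). Gpihbp1, the endothelial protein that carries it to the capillary lumen, was at 26.7, 41.1, 29.6, 27.6 and 42.9 TPM and 97.7, 69.4, 75.2, 78.0 and 72.5 TPM (log2 fold change 1.22, SE 0.16, adjusted p = 0.000521). Gm6484, the table's symbol for the lipase inhibitor Angptl8, was at 33.0, 30.99, 34.4, 28.8 and 17.9 TPM and 5.69, 8.78, 10.1, 8.58 and 11.2 TPM (log2 fold change -1.599, SE 0.21, adjusted p = 0.000559). The lipase and its carrier were higher in all cold samples and the inhibitor lower in all of them. Endothelial lipase Lipg rose from 1.18 to 4.65 TPM, and Mfsd2a, a transporter of lysophospholipids, from 1.57 to 63.6 TPM. Slc27a1, a fatty acid transport protein, fell from 41.3 to 19.6 TPM, and was not called with all 19 samples in the fit. Angptl4 was not analysed here. Markers of endothelial cells, where Gpihbp1 is made, summed to 65.5 to 90.3 TPM (median 75.3) in the cold and 50.9 to 98.5 TPM (median 63.3) at room temperature, with 3 of 11 higher and 3 lower.

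**Figure D3:**
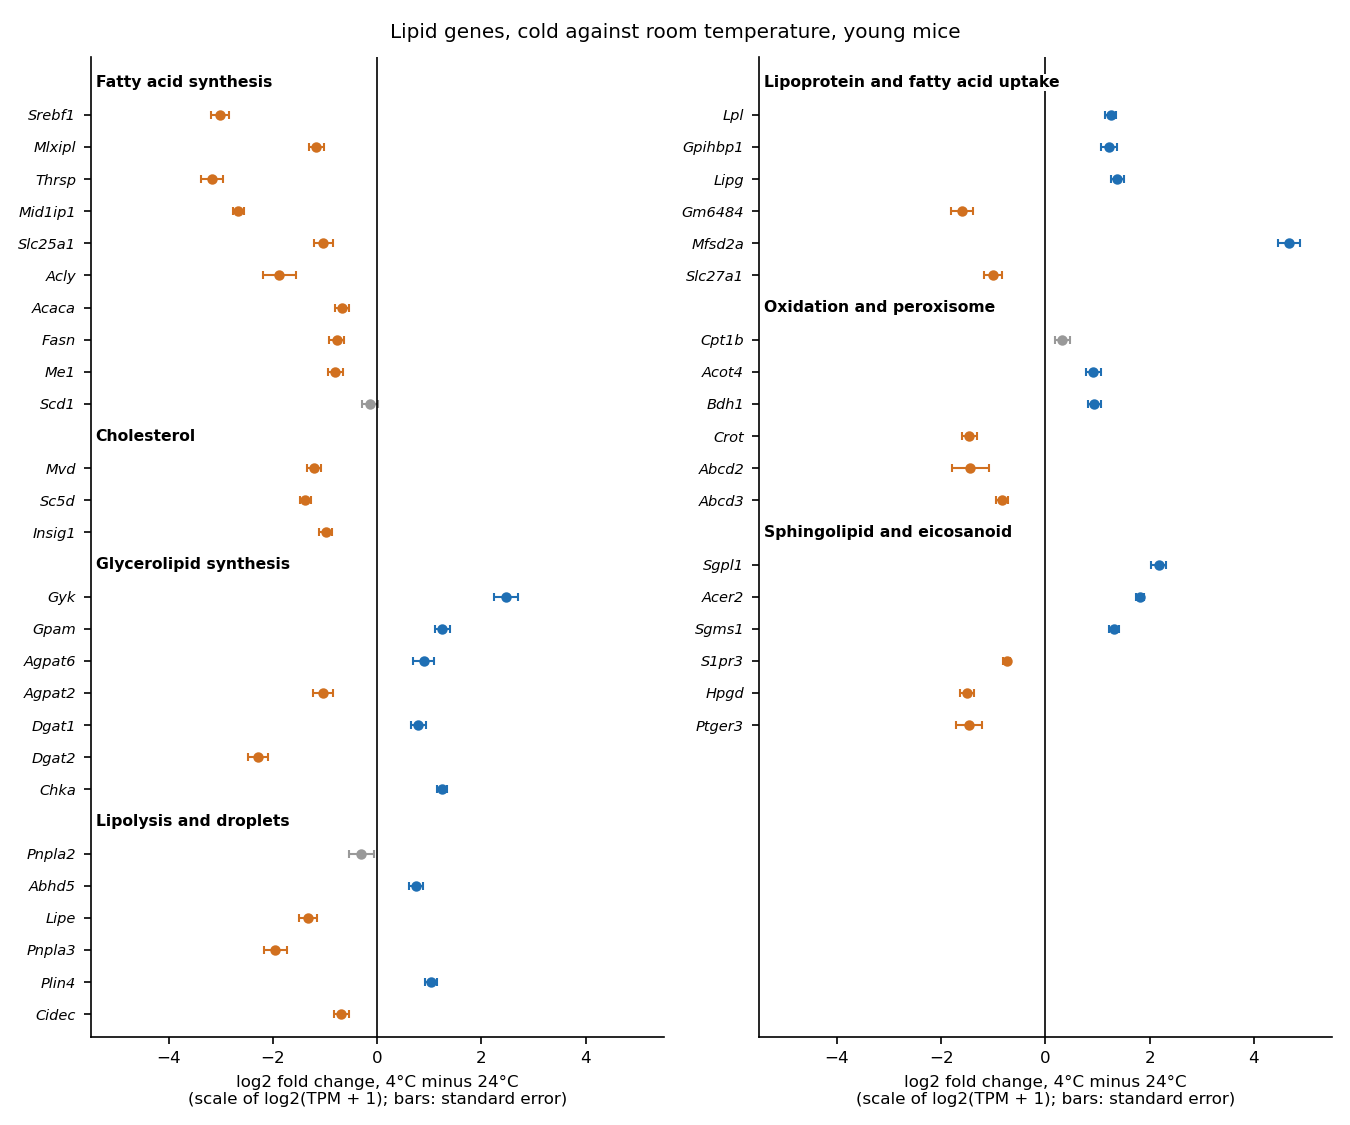
Log2 fold changes of lipid genes (4°C minus 24°C, scale of log2(TPM + 1)) with standard errors, in blocks by role, blue for called higher, orange for called lower and grey for not called. The fatty acid synthesis block lies left of 0, with Scd1 in grey, but it shows chosen members only. Ptplb and Elovl7, the members called higher, are not drawn. The glycerolipid block spreads from -2.29 for Dgat2 to 2.47 for Gyk.

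Fatty acid oxidation genes were called lower more often than higher, 11 against 4 of 42, and the falls included peroxisomal genes. The mitochondrial gatekeeper Cpt1b stood at 9.14 ± 1.94 TPM at 24°C and 11.6 ± 1.76 TPM at 4°C and did not pass the test (adjusted p = 0.134), though it did, as higher, after median centring. The peroxisomal carnitine transferase Crot fell from 9.81, 15.4, 10.1, 8.63 and 9.66 TPM to 3.24, 3.69, 3.34, 2.27 and 3.60 TPM (log2 fold change -1.46, SE 0.15, adjusted p = 0.000179). Crot separated the groups, and the paired-end sample was its highest. The peroxisomal importers Abcd3 (99.8 to 55.9 TPM) and Abcd2 (20.9 to 7.26 TPM, overlapping groups) fell. The thioesterase Acot4 rose from 1.59 to 3.84 TPM, and Bdh1, which oxidises the ketone body 3-hydroxybutyrate, was at 0, 0, 0, 0.139 and 0.0543 TPM at 24°C and 1.18, 0.547, 1.61, 1.01 and 0.781 TPM at 4°C (log2 fold change 0.94, SE 0.13, adjusted p = 0.000665).

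Sphingolipid genes called higher included enzymes that break ceramide and its products down, but such enzymes were also among those called lower. The ceramidases Acer3 (log2 fold change -0.58) and Asah2 (-0.45) fell, and Smpd1, which forms ceramide, rose (0.51). Acer2, a ceramidase of the Golgi, was at 3.96, 5.04, 3.37, 3.99 and 4.38 TPM at 24°C and 16.8, 18.7, 16.2, 16.4 and 16.8 TPM at 4°C (log2 fold change 1.81, SE 0.08, adjusted p = 2.29e-06), and Sgpl1, the lyase that irreversibly cleaves sphingosine 1-phosphate, was at 21.4, 20.3, 19.98, 14.6 and 26.0 TPM and 112, 99.8, 95.5, 91.9 and 77.8 TPM (log2 fold change 2.18, SE 0.14, adjusted p = 1.71e-05). Neither gene overlapped between the groups. Sphingomyelin synthase Sgms1 rose from 1.87 to 6.15 TPM, and the receptor S1pr3 fell from 1.27 to 0.355 TPM. In the list 7 of 35 were higher and 5 lower, which became 7 and 9 when the values were rescaled without Gm20594. Prostaglandin genes had 2 of 27 higher and 8 lower (7.41% and 29.6%, against 9.61% and 16.3% over all genes tested). Hpgd, which inactivates prostaglandins, fell from 4.13 to 0.826 TPM and the receptor Ptger3, which lowers cyclic AMP, fell from 10.3 to 3.10 TPM, while Ptges3, a cochaperone with prostaglandin synthase activity, rose from 11.8 to 25.9 TPM.

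Amino acid transporters were more often higher than lower, 10 of 32 against 3. Slc3a2, the heavy chain shared by several exchangers, was at 7.27, 7.18, 7.79, 4.47 and 10.2 TPM at 24°C and 68.3, 54.5, 53.5, 56.0 and 47.9 TPM at 4°C (log2 fold change 2.80, SE 0.17, adjusted p = 1.3e-05). Its light chain Slc7a8, for large neutral amino acids, was at 0.225, 0.235, 0.374, 0.262 and 0.320 TPM and 6.16, 5.92, 10.3, 8.99 and 10.6 TPM (log2 fold change 2.84, SE 0.15, adjusted p = 6.71e-06). A further light chain, Slc7a6, rose from 7.89 to 32.9 TPM. All cold samples of Slc3a2 and Slc7a8 lay far above the room temperature samples. The glutamine transporter Slc38a2 (8.82 to 32.5 TPM) and the arginine transporter Slc7a1 (0.112 to 1.03 TPM), both known to be induced through Atf4, also rose. The glutamine exchanger Slc1a5 went the other way, from 70.7, 103, 51.8, 68.0 and 60.8 TPM to 14.5, 12.9, 18.7, 11.9 and 19.2 TPM (log2 fold change -2.11, SE 0.19, adjusted p = 9.32e-05), and the glutamate transporter Slc1a3 fell from 13.3 to 5.44 TPM.

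Other carriers were divided. Of the mitochondrial carriers 7 of 39 were higher and 8 lower, and which of these was the larger changed with the scaling. Slc25a34, of the mitochondrial carrier family, was at 4.03, 2.84, 1.85, 1.68 and 6.26 TPM at 24°C and 15.1, 17.5, 18.6, 17.1 and 20.3 TPM at 4°C (log2 fold change 2.21, SE 0.26, adjusted p = 0.000317), without overlap. The peroxisomal cofactor carrier Slc25a17 (41.4 to 86.7 TPM) and the ATP-magnesium/phosphate carrier Slc25a25 (1.02 to 3.09 TPM) rose. Of transporters for monocarboxylates, vitamins, nucleosides and organic ions 6 of 22 were higher and 5 lower, which became 10 and 5 after median centring and 6 and 7 when the values were rescaled without Gm20594. The phosphate importer Slc20a1 was at 1.09, 1.43, 1.38, 0.948 and 1.66 TPM and 18.1, 17.0, 12.2, 14.3 and 10.3 TPM (log2 fold change 2.72, SE 0.15, adjusted p = 8.42e-06), and all its cold samples were above its room temperature samples. The organic cation transporter Slc22a3, which clears noradrenaline, was at 6.74, 7.61, 6.78, 7.93 and 7.45 TPM and 2.49, 1.84, 1.86, 0.728 and 1.94 TPM (log2 fold change -1.62, SE 0.16, adjusted p = 0.000154), with all cold samples below. The monocarboxylate transporter Slc16a7 fell from 5.66 to 2.15 TPM.

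**Figure D4:**
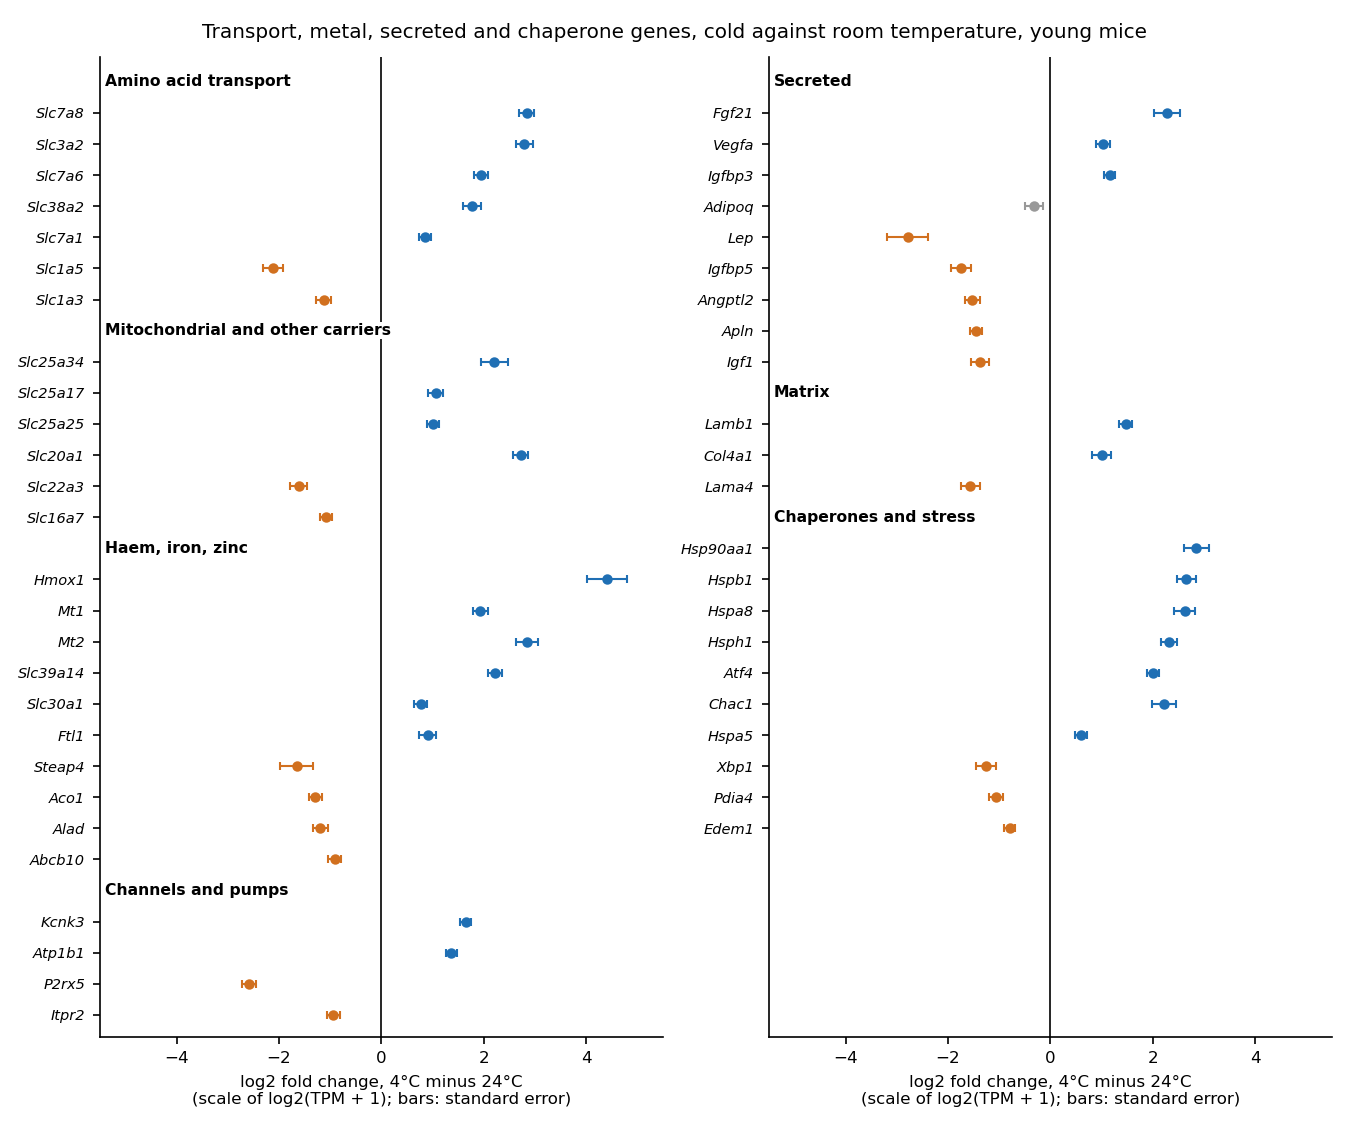
Log2 fold changes of transport, metal, secreted, matrix and chaperone genes (4°C minus 24°C, scale of log2(TPM + 1)) with standard errors, blue for called higher, orange for called lower and grey for not called. Hmox1, at 4.41, lies furthest to the right and Lep, at -2.79, furthest to the left.

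Haem and metal genes had 10 of 43 higher and 17 lower. Haem oxygenase Hmox1, which breaks haem down, rose from 3.62 ± 2.56 TPM to 86.9 ± 20.04 TPM. The metal-binding metallothioneins rose, Mt2 from 28.7, 20.2, 35.5, 14.7 and 26.9 TPM at 24°C to 132, 202, 195, 186 and 196 TPM at 4°C (log2 fold change 2.85, SE 0.22, adjusted p = 3.89e-05) and Mt1 from 126 to 482 TPM; the genes are close in sequence, so reads may be split between them. Slc39a14, which imports zinc and iron, was at 1.39, 1.41, 0.819, 1.10 and 1.66 TPM and 7.52, 8.08, 11.8, 9.70 and 11.2 TPM (log2 fold change 2.22, SE 0.14, adjusted p = 1.35e-05). Every cold sample of Mt2 and Slc39a14 exceeded every room temperature sample. The zinc exporter Slc30a1 (2.49 to 4.87 TPM) and the ferritin light chain Ftl1 (43.0 to 80.8 TPM) rose, the latter with related pseudogenes that could share its reads. Of genes linked to haem synthesis, Alad (13.8 to 5.42 TPM) and the mitochondrial transporter Abcb10 (5.88 to 2.61 TPM) fell, as did the metalloreductase Steap4 (51.3 to 14.2 TPM) and Aco1 (43.4 to 17.0 TPM), the cytosolic aconitase that also serves as an iron sensor.

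Ion channels and pumps had 7 of 43 higher and 7 lower, and 12 and 5 after median centring. That is 16.3% in each direction, against 9.61% higher and 16.3% lower over all genes tested. Kcnk3, a potassium leak channel abundant in brown adipocytes, was at 29.7, 28.8, 24.7, 24.6 and 32.3 TPM at 24°C and 80.6, 113, 92.2, 77.2 and 86.9 TPM at 4°C (log2 fold change 1.64, SE 0.11, adjusted p = 2.1e-05). P2rx5, an ATP-gated channel of the brown adipocyte surface, was at 16.2, 21.4, 12.6, 15.2 and 14.2 TPM and 2.11, 1.605, 2.22, 1.499 and 1.598 TPM (log2 fold change -2.58, SE 0.13, adjusted p = 5.76e-06). Neither gene overlapped between the groups. Atp1b1, the beta chain of the sodium pump, rose from 2.67 to 8.59 TPM, and the calcium release channel Itpr2 fell from 16.5 to 8.06 TPM. No ABC transporter was called higher and 10 of 24 were lower, among them Abca8a (9.92 to 4.10 TPM) and Abcc1 (3.01 to 1.28 TPM). After median centring 3 were higher and 8 lower, and with quantile normalization 2 and 9.

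Secreted proteins showed 6 of 58 members higher and 10 lower, equal at 10 and 10 after median centring. These shares, 10.3% and 17.2%, were near the 9.61% and 16.3% over all genes tested. Fgf21, a hormone of energy balance that BAT makes in the cold, was at 0.279, 0.145, 0.295, 0.284 and 0.167 TPM at 24°C and 5.43, 4.69, 4.62, 9.71 and 2.41 TPM at 4°C (log2 fold change 2.27, SE 0.25, adjusted p = 0.00023). Leptin, encoded by Lep, was at 7.57, 14.9, 4.78, 9.15 and 1.85 TPM and 0.251, 0.0929, 0.0474, 0 and 0.00984 TPM (log2 fold change -2.79, SE 0.39, adjusted p = 0.000921). Both separated the groups, and Lep was at 0 in cold replicate 4. White adipocyte markers other than Lep summed to 0.696 to 5.76 TPM in the cold and 1.47 to 5.62 TPM at room temperature. In that list, Lep included, 1 of 2 tested members was lower and the defining markers Tcf21 and Hoxc10 were at 0 in all samples; the part of white adipocytes in the Lep result was not tested.

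The angiogenic factor Vegfa rose from 28.9, 37.7, 25.8, 30.1 and 42.0 TPM to 80.8, 64.4, 64.4, 70.4 and 57.6 TPM (log2 fold change 1.03, SE 0.14, adjusted p = 0.00075), without overlap but not called with all 19 samples in the fit. Clstn3, which has an adipose form linked to lipid droplets and innervation, rose from 23.5 to 49.5 TPM, and Igfbp3, which binds insulin-like growth factors, from 1.47 to 4.48 TPM. The growth factor Igf1 itself fell from 3.69, 4.07, 2.42, 3.37 and 1.82 TPM to 0.779, 0.482, 0.458, 0.269 and 0.740 TPM (log2 fold change -1.38, SE 0.17, adjusted p = 0.000427), and the binding protein Igfbp5 fell from 10.7 to 2.58 TPM. The peptide Apln (2.27 to 0.181 TPM) and the inflammatory glycoprotein Angptl2 (10.3 to 2.88 TPM) were lower. Adiponectin, Adipoq, stood at 428 ± 83.4 TPM at 24°C and 345 ± 80.3 TPM at 4°C and did not pass the test (adjusted p = 0.224), though it did, as lower, with precision weights (adjusted p = 0.0274) and after rescaling without Gm20594 (adjusted p = 0.037).

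Of the matrix genes 9 of 53 were higher and 10 lower, and without the paired-end sample 10 were higher and 5 lower. The laminin chains split, with Lamb1 at 9.22, 12.5, 8.74, 6.93 and 10.5 TPM at 24°C and 25.7, 27.7, 30.2, 27.9 and 27.7 TPM at 4°C (log2 fold change 1.47, SE 0.12, adjusted p = 5.75e-05) and Lama4 at 10.8, 11.7, 9.76, 6.22 and 12.3 TPM and 3.71, 2.09, 3.24, 2.28 and 2.42 TPM (log2 fold change -1.56, SE 0.18, adjusted p = 0.000338). Neither chain overlapped between the groups. The basement membrane collagens Col4a1 (26.8 to 55.5 TPM) and Col4a2 (14.0 to 23.8 TPM) rose, not called with all 19 samples in the fit. Pericyte and smooth muscle markers summed to 9.70 to 12.0 TPM (median 10.8) in the cold and 13.3 to 22.4 TPM (median 17.9) at room temperature, with 3 of 6 lower and none higher, and fibroblast markers to 96.6 to 213 TPM in the cold and 112 to 195 TPM at room temperature, with 1 of 8 higher. Their part in the matrix differences was not tested.

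Chaperone and stress genes formed the other list dominated by rises, with 23 of 42 higher and 3 lower and a median log2 fold change of 0.53. Hsp90aa1, the inducible cytosolic chaperone, was at 13.4, 5.298, 12.0, 13.8 and 12.1 TPM at 24°C and 108, 83.4, 86.9, 89.0 and 60.4 TPM at 4°C (log2 fold change 2.85, SE 0.25, adjusted p = 6.81e-05). Hspa8, the constitutive Hsp70, was at 42.8, 22.2, 35.1, 39.8 and 53.2 TPM and 211, 239, 256, 254 and 213 TPM (log2 fold change 2.62, SE 0.20, adjusted p = 3.31e-05). Both separated the groups, and the paired-end sample was the lowest for each; both have close relatives or pseudogenes with which reads could be shared. The small heat shock protein Hspb1 (6.02 to 42.1 TPM) and the Hsp70 exchange factor Hsph1 (1.76 to 12.7 TPM) rose with them. Atf4, the factor of the integrated stress response, was at 29.8, 37.2, 32.6, 32.4 and 40.3 TPM and 173, 126, 133, 158 and 117 TPM (log2 fold change 2.0005, SE 0.12, adjusted p = 1.21e-05), and its target Chac1, a glutathione-degrading enzyme, rose from 0.0987 to 4.42 TPM. Genes of the endoplasmic reticulum moved both ways. The chaperone Hspa5 rose from 59.4 to 90.5 TPM, not called with all 19 samples. Dnajb9 (log2 fold change 1.73), Atf6 (1.12), Manf (0.69) and Canx (0.47) were also called higher. Xbp1, a transcription factor of the unfolded protein response, fell from 15.9, 18.4, 9.16, 11.0 and 9.87 TPM to 5.57, 3.55, 5.78, 3.99 and 4.45 TPM (log2 fold change -1.26, SE 0.20, adjusted p = 0.00176). The folding and disposal genes Pdia4 (9.88 to 4.17 TPM) and Edem1 (8.16 to 4.23 TPM) fell too.

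Purine and polyamine genes had 3 of 37 higher and 11 lower. Gmpr, which turns GMP into IMP and so feeds the adenine branch, rose from 13.4 ± 7.88 TPM to 421 ± 55.9 TPM. Ampd2, which deaminates AMP, was at 2.43, 3.52, 1.73, 3.50 and 3.26 TPM at 24°C and 0.305, 0.205, 0.314, 0.343 and 0.423 TPM at 4°C (log2 fold change -1.54, SE 0.14, adjusted p = 7.83e-05), without overlap. Gart, of new purine synthesis, fell from 5.43 to 2.72 TPM. Sat1, the acetyltransferase that starts polyamine breakdown, rose from 8.36 to 29.0 TPM. Xdh, which makes uric acid, was at 16.2, 24.3, 15.0, 12.9 and 21.7 TPM and 27.0, 23.0, 27.5, 24.6 and 26.3 TPM with overlapping groups, and its adjusted p of 0.0358 was over 0.05 without any 1 of cold replicates 1 to 5 or room temperature replicates 1, 3 or 4, and with all 19 samples in the fit.

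Some of the largest differences fell outside the lists. Cyp2b10, a cytochrome P450 oxidase, was at 1.29, 4.67, 1.36, 1.002 and 3.52 TPM at 24°C and 67.2, 39.7, 62.1, 61.5 and 41.9 TPM at 4°C (log2 fold change 4.14, SE 0.31, adjusted p = 3.36e-05). The growth-arrest genes Cdkn1a (2.33 to 32.1 TPM), Gadd45g (7.20 to 68.4 TPM) and Plk3 (0.473 to 11.0 TPM) rose, as did the surface proteoglycan Sdc4 (17.3 to 129 TPM). Gpr81, the lactate receptor that lowers cyclic AMP in adipocytes, was at 9.23, 8.97, 5.76, 4.51 and 3.87 TPM and 0.128, 0.348, 0.218, 0.0705 and 0.331 TPM (log2 fold change -2.55, SE 0.21, adjusted p = 5.33e-05). None of the cold samples of Gpr81 reached 1 TPM and none of the room temperature samples was below it. The vascular ligand Angpt1 (4.90 to 0.461 TPM), the stem cell factor receptor Kit (3.18 to 0.189 TPM), the secreted Smoc1 (10.5 to 2.25 TPM), Kbtbd11 (5.33 to 0.283 TPM) and Tusc5 (47.4 to 5.52 TPM), a membrane protein of insulin-responsive vesicles, fell, as did Ppp1r3b (112 to 12.2 TPM), which directs a phosphatase to glycogen.

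The size of a fold change of low genes depended on the pseudocount. With 0.1 in place of 1, 30 of the named genes moved by between 1.5 and 6.71 times, all with a group mean of at most 1.23 TPM at one temperature, and none changed direction or lost its call. They were Adora2a, Ampd2, Angpt1, Apln, Arrb1, Bdh1, Chac1, Chka, Dusp14, Elovl7, Esr1, Fgf21, Fos, Gpr81, Hpgd, Igf1, Irs3, Kbtbd11, Kit, Lep, Mvd, Nr3c2, Nr4a1, Nr4a3, S1pr3, Slc7a1, Slc7a8, Socs2, Wnt5a and Zfp516. Precision weights on recovered reads, with their change of scale, moved 34 of the named genes by between 1.53 and 15.2 times. Elovl7 moved the most, and 29 of these genes were among the 30. The parts of the weights and of the scale in these moves were not separated.

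Without the paired-end room temperature sample, most calls and all directions of the called list members were kept. Of 437 list members called with all 10 samples, 395 were called without it, all 437 kept their sign, and 21 further members were called only without it. The 437 were selected with that sample in the fit, and the fits share all other samples, so kept signs are a weak check. The log2 fold changes of the 437 moved by 0.049 at the median and by 0.274 at most. Over all genes the count went from 1585 higher and 2694 lower to 1654 higher and 2262 lower. Among matrix genes the larger count changed from lower to higher. Among immediate early genes 14 were then higher and 1 lower, in fatty acid synthesis 3 and 15, in cholesterol synthesis 1 and 11, among chaperones 25 and 3, and among amino acid transporters 9 and 4. Fos was the named gene whose call was lost.

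**Figure D5:**
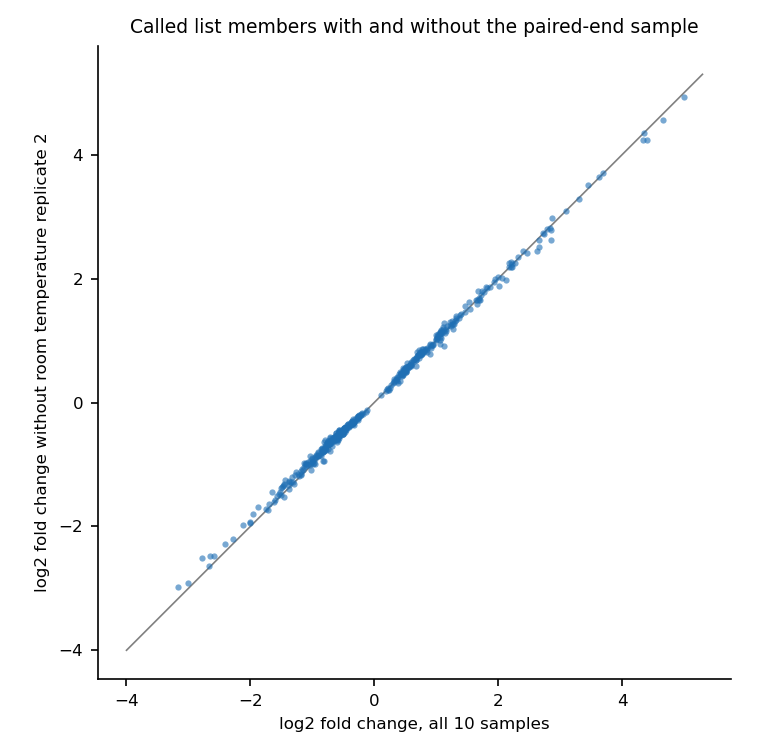
Log2 fold change (4°C minus 24°C) of the 437 called list members with all 10 samples (horizontal) and without room temperature replicate 2 (vertical), with the line of equality. The points follow the line, with a largest difference of 0.274.

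Cell type markers bear on the tissue label. Brown adipocyte markers summed to 12606 to 15198 TPM (median 13443) in the cold and 10582 to 15371 TPM (median 10896) at room temperature, with 1 of 11 higher and 2 lower. This sum includes Ucp1, which itself rose from 1935 to 4731 TPM, and a sum without Ucp1 was not computed. Skeletal muscle markers summed to between 26.7 and 1450 TPM (median 175) in the cold and between 0.848 and 358 TPM (median 115) at room temperature, and none of 15 was called. Macrophage markers had 2 of 10 called higher, with sums of 37.1 to 74.3 TPM in the cold and 42.3 to 93.2 TPM at room temperature, and lymphocyte markers summed to at most 1.14 TPM at room temperature and 0.567 TPM in the cold. The part of these cells in the differences above was not tested.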

How the data were processed

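BAT RNA of the 10 young mice was compared, and samples of old mice entered only the interaction of age and temperature. Per the labels, libraries were stranded and depleted of ribosomal RNA. The authors used Rsubread for alignment and deposited log2 TPM values made with edgeR and limma, and the low values show the scale to be log2(TPM + 1). Versions in the submitters' processing notes are R 3.2.2 and limma 3.20.9. A human reference is named in the study's methods although the identifiers are those of mouse, so the genome build is uncertain. Groups came from the sample labels, and 0 columns were left unmapped. A table of counts was not used here, so the test was run on the log2 scale.

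The young samples were fitted with limma 3.58.1 (R 4.3.3), a moderated two-sided test adjusted by Benjamini-Hochberg over 16501 genes (16957 for the interaction), and calls were made at 0.05. Genes at 0 in all samples fitted were left out. The fits were tested on simulated data. Reads per gene were estimated from TPM and exon lengths of GENCODE M21. Of low values, 56.0% to 59.1% per sample came out whole within 0.02 reads, so depths are estimates. The number of reads limits the precision of low genes. Genes were named by a rule: in each list the members with the largest called changes and its defining members, then the 30 largest rises and 30 largest falls, and the 5 list members with the smallest interaction p. Some genes that this rule names are not reported here. The members and lists were chosen with earlier results of these data known. Promoter windows came from RefSeq (GRCm38.p6).

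The alternatives were: keeping genes with a mean of at least 1 TPM; a pseudocount of 0.1; 2 ways of median centring; quantile normalization; rescaling without Gm20594; a robust prior with a trend; sample weights; one fit of all 19 samples; blocking on the replicate number; leaving out each sample; a threshold of 0.25; and, chosen after seeing the data, precision weights on recovered reads and, for the interaction, leaving out 4 samples low in Gm20594. Python 3.11.15 (numpy 2.4.6, pandas 2.3.3, matplotlib 3.10.9) was used for summaries and plots.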

Additional observations from a re-analysis of the deposited data

Results flagged for a closer look

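In 21 of the 388 groups of 5 samples examined (5.41%, in 20 genes), 1 sample stood apart from the other 4; chance flags about 1 in 20 groups. Cold replicate 1 was that sample for 9 genes. It was high for Crem at 5.74 TPM (4.32 to 4.41 TPM in the other 4), Dio2 at 449 TPM (362 to 373 TPM in the other 4), Ptplb at 62.6 TPM (45.1 to 47.2 TPM in the other 4), Ptges3 at 36.7 TPM (22.6 to 23.9 TPM in the other 4) and Slc25a17 at 108 TPM (78.5 to 84.8 TPM in the other 4). It was low for Jun at 6.29 TPM (10.1 to 11.1 TPM in the other 4), Lpl at 436 TPM (544 to 580.2 TPM in the other 4), Mt2 at 132 TPM (186 to 202 TPM in the other 4) and Itpr2 at 6.52 TPM (8.17 to 8.61 TPM in the other 4). The paired-end room temperature replicate 2 stood apart for 4 genes. It was high for Crot at 15.4 TPM (8.63 to 10.1 TPM in the other 4) and Abca8a at 13.3 TPM (8.88 to 9.40 TPM in the other 4), and low for Hsp90aa1 at 5.298 TPM (12.0 to 13.8 TPM in the other 4) and for Gm20594 at 2503.6 TPM.

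Other cold samples stood apart for Acer2, where replicate 2 had 18.7 TPM (16.2 to 16.8 TPM in the other 4), and Gmpr, where it had 323 TPM (429 to 458 TPM in the other 4). Cold replicate 4 was low for Crot at 2.27 TPM (3.24 to 3.69 TPM in the other 4) and for Hmox1 at 51.3 TPM (92.8 to 99.0 TPM in the other 4), and cold replicate 5 for Gpam at 218 TPM (249.975 to 264 TPM in the other 4). At room temperature, replicate 4 had 0 TPM (0.613 to 0.784 TPM in the other 4) of Atf3, replicate 1 had 3496 TPM (4563 to 5024 TPM in the other 4) of Scd1, and replicate 5 had 17.9 TPM (28.8 to 34.4 TPM in the other 4) of Gm6484. None of the calls the report gives for these genes was lost when the sample that stood apart was left out.

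Cold differences of 2 genes differed between young and old mice by limma's interaction test. The interaction of Socs2 was 1.90 (adjusted p = 0.00998), and it was called under 26 of 28 alternatives, with an adjusted p of 0.00273 to 0.142. Gfra1, a GDNF co-receptor outside the lists and named after its values were seen, had an interaction of 0.89 (adjusted p = 0.00998, called under 22 of 27 alternatives, 0.009 to 0.322). Its levels were 0.0946, 0.173, 0.1002, 0.0966 and 0.264 TPM in young mice at room temperature and 1.15, 0.967, 0.958, 1.33 and 1.42 TPM in the cold, and 0.212, 0.142, 0.432, 0.0863 and 0.202 TPM and 0.134, 0.268, 0.142 and 0.385 TPM in old mice.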

How the results depend on the processing

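Of 4239 recomputed values of the named genes, 0 changed direction, and 162 of the 186 called genes were called under every alternative. The 1 TPM filter, the robust prior, the replicate block, the 19-sample fit and the 0.25 threshold leave a fold change as it was. Direction could not change in them. The genes were also named first for large called changes in these same data. Against 4279 genes called (1585 higher, 2694 lower), 1758 (619 higher, 1139 lower) were called with all 19 samples in one fit and 7309 (2668 higher, 4641 lower) at a threshold of 0.25, and median centring gave 3468 higher. Leaving out 1 sample gave 3482 to 4338 genes, 1288 to 1654 higher and 2074 to 2980 lower. Against 2 genes called for the interaction, there were 6 with the filter on 1 TPM, 19 with median centring and 14 with centring on genes of 1 TPM or more. There were 0 with a pseudocount of 0.1, 26 with quantile normalization, 23 with rescaling without Gm20594 and 18 at a threshold of 0.25. Without the 4 samples low in Gm20594, which leaves only old cold replicates 3 and 4 in their group, 266 were called. Leaving out 1 sample gave 2 to 19, with 19 without old cold replicate 4 and 10 without old room temperature replicate 1. The cause of these differences was not tested. The replicate number as a block gave 1231 higher and 1999 lower and 0 interactions. Deviations of samples with the same number correlated at 0.014, 0.198, -0.023, -0.0019 and -0.154, and no cold sample correlated best with the room temperature sample of its number. Replicate 5 was the deepest sample of each group that had one. Its estimated reads were 15842056 (young cold), 11609975 (young room temperature) and 10843763 (old room temperature). Whether samples of the same number share a run or batch was not tested. Of 1320 recomputed list counts, 1141 were within 1.5 times. Depth limits genes near 0, where a single read decides a value.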

Other observations

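The list members with the next smallest p of the interaction did not pass the adjusted test. Hilpda, a lipid droplet protein that inhibits adipose triglyceride lipase, stood at 1.88, 2.33, 1.74, 2.16 and 1.83 TPM in young mice at room temperature and 1.53, 3.77, 2.09, 2.41 and 1.97 TPM in the cold, with a cold difference of 0.14 in young and 1.94 in old mice. Its interaction of -1.80 had a limma adjusted p of 0.0608, which ran from 0.0118 to 0.208 over 28 alternatives and was under 0.05 in 10 of them. For Mid1ip1 the cold difference was -2.67 in young and -1.18 in old mice (adjusted p of the interaction = 0.243), and for the amino acid transporter Slc43a2 it was 1.01 and -0.34 (adjusted p = 0.268). For the phosphatase Dusp14 it was -1.38 and -0.44 (adjusted p = 0.243). Without the 4 samples low in Gm20594, the limma adjusted p of the interaction was 0.0284 for Hilpda, 0.0457 for Slc43a2, 0.0628 for Mid1ip1 and 0.0726 for Dusp14. Only replicates 3 and 4 of the old cold group remained in that fit.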
